A study of Sus scrofa with 48 samples.

Results

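Metallothioneins are small cysteine-rich proteins that bind zinc and copper, and MT1A is a member of this family. In mammals their genes are switched on by MTF1, a zinc finger transcription factor that senses free zinc and binds metal response elements, and also by glucocorticoids and inflammatory signals. Metallothioneins are made in many tissues, with high levels in liver and kidney, and fat cells make them as well. MT1A, MT2A and MTF1 were followed here in PRAT, the perirenal fat of the pig. A probe was a member when the scanner files gave it 1 of these gene names. This held for 4 of the 60306 porcine array probes, of which 3 were named MT1A, 1 was named MTF1 and none was named MT2A, so 2 of the 3 genes could be measured, among 9908 named genes with a kept probe. MT1A was chosen by the difference in its level between the lines, and this line difference is therefore described below without a test.

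The tissue came from 48 castrated male Large White pigs, labelled as 132 days old, and each diet was fed to 12 pigs of each line. The lines were selected in opposite directions for residual feed intake (RFI), the feed a pig eats beyond what its growth and maintenance predict, and are called RFIneg (low RFI) and RFIpl (high RFI). Feed was either the HF diet, in which part of the starch was replaced by plant oils and wheat straw so that it was richer in fat and fiber, or the LF diet, low in fat and rich in starch. The groups are thus HF_RFIneg, HF_RFIpl, LF_RFIneg and LF_RFIpl, each pig gave 1 array, and a line is a breeding population rather than a single gene model. A level below is log2 of the median spot signal minus the median of all 60306 probes on that array, so that 1 unit is a doubling relative to the middle probe of the array. Levels of different probes cannot be compared with each other, since probes differ in how well they bind.

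The arrays lay on 6 slides of 8 arrays, each slide holding 2 arrays of every group, and were scanned on 2 days. Between 35787 and 38118 of the 38142 probes kept by the authors were well above background on an array, with no saturated spot among them. Precision is limited by how many arrays there are. Of 8 adipocyte markers 7 had a kept probe, at mean levels between 4.46 (LEP) and 10.8 (FABP4). With no other tissue set beside them, these levels do not test the tissue label. Transcripts of liver also stood out. The level of albumin (ALB), the main plasma protein made by liver, ran from -1.52 to 9.05 over the arrays with a median of 0.72. ALB was above 2 on 18 arrays, namely 6 of HF_RFIneg, 1 of HF_RFIpl, 6 of LF_RFIneg and 5 of LF_RFIpl. This list of liver genes and the ALB level of 2 were chosen after the values were seen. Listed genes whose diet call changed without these arrays are given with and without them.

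The 3 MT1A probes do not carry the same sequence, and this matters for what follows. A_72_P079681 and A_72_P744498 were designed on the pig MT1A mRNA and share a run of 30 bases. O4231 carries a human MT1A accession as its name, and its longest run in common with either of them is 12 bases. The stretches of 30 bases that open with this common run are shown with the positions that differ between probes in capitals.
A_72_P079681: tgaaatatgtgaGtTGtaataaaagttgTC
A_72_P744498: tgaaatatgtgaGtTGtaataaaagttgTC
O4231: tgaaatatgtgaAtGAtaataaaagttgCT
In this window 5 of 30 positions differ between O4231 and the pair designed on the pig mRNA. The remaining metallothionein probes of interest read coding sequence, shown here because their codons for cysteine, the residue that holds the metal, are in capitals.
MT1G: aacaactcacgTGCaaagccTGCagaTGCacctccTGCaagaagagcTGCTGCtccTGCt
MT1M: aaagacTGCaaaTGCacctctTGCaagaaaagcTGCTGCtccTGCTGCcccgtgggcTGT
The MT1G probe O14399 holds 7 such codons among 19, and the MT1M probe O11111 holds 8 among 20. They share a longest run of 16 bases. A further spot without a gene name carries the same 60 bases as the MT1M probe, and serves as a second measurement of it. No other array probe shared 20 or more bases in 1 run with O4231 or the MT1G probe. Names such as MT1G and MT1M were given to the probes by human accessions, and which metallothionein RNA of the pig each probe bound was not tested.

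MT1A varied widely between pigs of the same group. With A_72_P079681, the MT1A probe with the highest mean signal and the one meant by MT1A unless another is named, the level ran from 0.00 to 6.86 over the 48 pigs, a 116-fold range. The SD within groups was 1.74, and 69 of the 38142 kept probes (0.181%) had a larger one, against a median SD of 0.204 over all kept probes. In HF_RFIneg pigs the lowest, median and highest levels were 3.24, 5.82 and 6.86. In HF_RFIpl pigs they were 0.31, 1.76 and 6.86. In LF_RFIneg pigs they were 0.48, 4.86 and 6.0, and in LF_RFIpl pigs 0.00, 4.35 and 6.34. The groups overlapped throughout, and the highest HF_RFIpl pig stood level with the highest HF_RFIneg pig. The levels left their widest inner gap between 1.86 and 2.57, with 11 pigs below it. Of these 11 pigs, 7 were HF_RFIpl, 3 were LF_RFIpl, 1 was LF_RFIneg and none was HF_RFIneg.

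Group means of MT1A were ordered HF_RFIneg with 5.45 ± 1.08 (SD, n = 12), LF_RFIneg with 4.40 ± 1.53, LF_RFIpl with 3.85 ± 2.03 and HF_RFIpl with 2.66 ± 2.12. Each step between neighbours in this order was smaller than the SD within groups. The low RFI line lay above the high RFI line by 1.67 ± 0.48 (SE), a 3.19-fold difference of means on the log2 scale, which is the value that chose the gene and is given as a description. The background in this contrast was 3.6% of kept probes called between lines, 1.83% higher and 1.77% lower in the low RFI line. Within the HF diet the gap between lines was 2.79 ± 0.68 (SE), and within the LF diet it was 0.55 ± 0.68. On 5 of the 6 slides the mean of the 4 low RFI pigs was above that of the 4 high RFI pigs, by 1.09 to 3.29. On slide 2 it was below, with a difference of -1.32. Without the 18 arrays with high ALB, the gap was 1.71 ± 0.66 over 30 pigs. With the ALB level as a covariate over all 48 pigs, it was 1.34 ± 0.47.

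**Figure D1:**
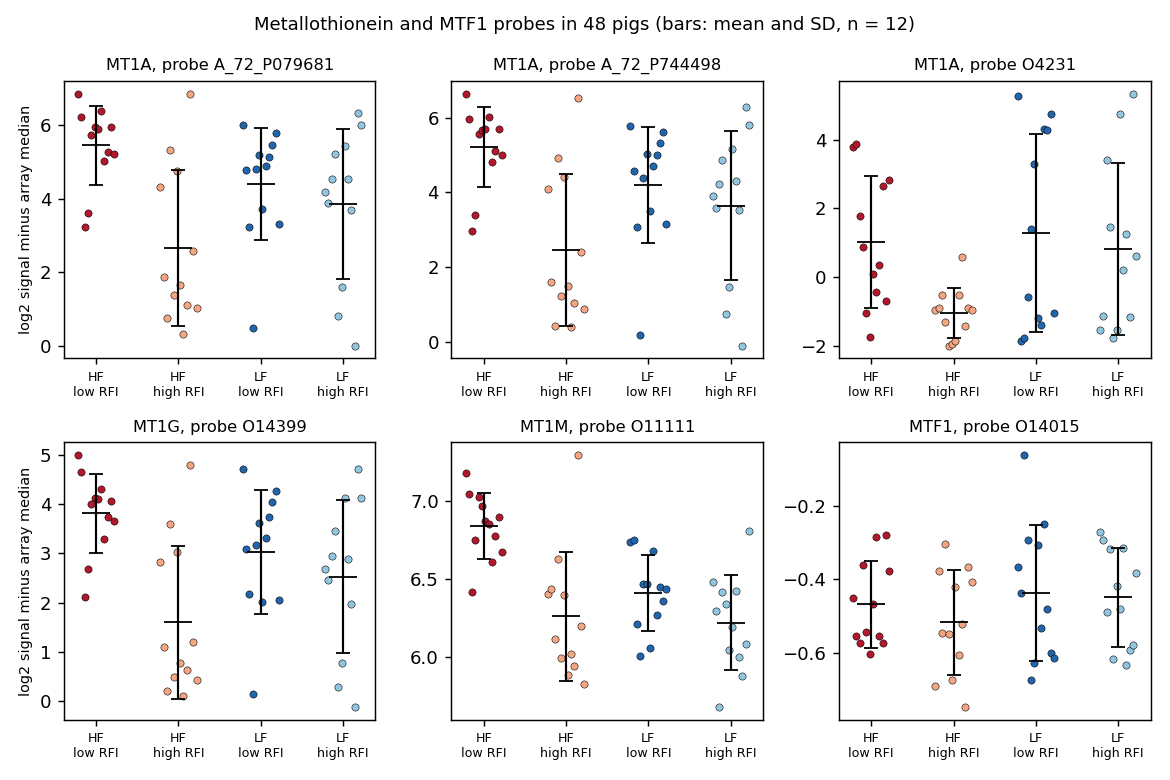
Level (log2 signal minus array median) of the MT1A probes, MT1G, MT1M and MTF1 in each of 48 pigs by diet and line, with the mean and SD of 12 pigs as lines; each panel has its own vertical axis. MT1A runs from 0.00 to 6.86 and MT1G from -0.13 to 5.0, with HF low RFI pigs of MT1A between 3.24 and 6.86, while MTF1 stays between -0.75 and -0.06 in all groups.

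**Figure D2:**
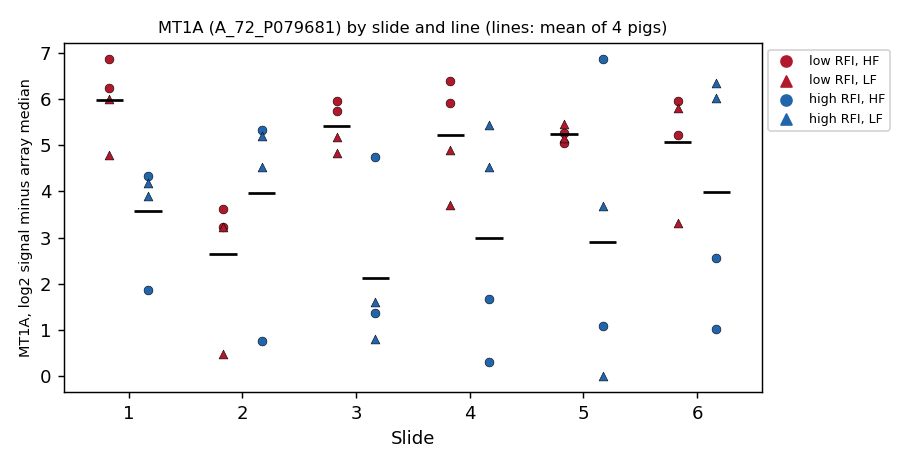
MT1A level (probe A_72_P079681, log2 signal minus array median) of every pig on each of the 6 slides, split by line (colour) and diet (symbol), with the mean of 4 pigs of a line as a short line. The low RFI mean is higher on 5 slides and lower on slide 2.

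MT1A was not called between diets. The HF minus LF difference was -0.07 ± 0.48 (SE) on the log2 scale, with a 95% interval from -1.02 to 0.88 (limma, BH p = 0.92). By BH p is meant the Benjamini-Hochberg adjusted p over all 38142 kept probes, and a call required a raw p under 0.01, a fold over 1.1 and a BH p under 0.08. Under the same test 24.5% of kept probes were called between diets, 8.97% higher and 15.5% lower in HF pigs. The interval reaches about as far as a doubling in either direction. Without the arrays with high ALB the difference was 1.11 ± 0.66 (limma, BH p = 0.21), also not called, and with the ALB level as a covariate it was 0.26 ± 0.47 (limma, BH p = 0.71).

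The diet difference of MT1A had opposite signs in the lines. In low RFI pigs HF minus LF was 1.05 ± 0.68 (SE; limma, BH p = 0.33), and in high RFI pigs it was -1.19 ± 0.68 (limma, BH p = 0.24). The interaction, the difference between these differences, was 2.24 ± 0.97 (limma, unadjusted p = 0.025, BH p = 1.0) and was not called. None of the 38142 kept probes was called for the interaction by limma or by the two-way analysis of variance of the methods. At an unadjusted p under 0.05 there were 826 probes (2.17%) by limma and 810 by the analysis of variance. This share is below the 0.05 expected if no probe had an interaction. MT1A is among these 826.

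The other probe designed on the pig mRNA gave the same picture. A_72_P744498 followed A_72_P079681 with a Pearson r of 0.999 and a Spearman rho of 0.998 over 48 pigs after group means were taken out. Its group means were 5.21 ± 1.07 in HF_RFIneg, 2.46 ± 2.02 in HF_RFIpl, 4.19 ± 1.55 in LF_RFIneg and 3.65 ± 1.99 in LF_RFIpl (SD, n = 12). Its diet difference was -0.09 ± 0.47 (SE; limma, BH p = 0.91) and its interaction 2.21 ± 0.95 (limma, unadjusted p = 0.024, BH p = 1.0). As the probes share 30 bases and the same arrays, this is a repeated measurement and not a second set of pigs.

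Probe O4231 behaved in another way. Its lowest, median and highest levels were -1.73, 0.61 and 3.86 in HF_RFIneg pigs, -2.0, -0.96 and 0.59 in HF_RFIpl pigs, -1.85, 0.41 and 5.28 in LF_RFIneg pigs, and -1.78, 0.40 and 5.34 in LF_RFIpl pigs. It was well above background on 41 of 48 arrays. HF_RFIpl pigs thus had a narrow and low range, while each of the other groups held both low and high pigs. With A_72_P079681 it had a Pearson r of 0.376 and a Spearman rho of 0.369 after group means were taken out. Its diet difference of -1.07 ± 0.60 (SE; limma, BH p = 0.17) and its interaction of 1.61 ± 1.21 (limma, BH p = 1.0) were not called.

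The level of O4231 went with that of albumin. After group means were taken out, Pearson r with ALB was 0.985 and Spearman rho 0.986 over the 48 pigs, each with a permutation p of 1e-05, the smallest that 100000 permutations within groups can give, and a BH-adjusted p of 5e-05 over 5 probes. Without the 2 arrays with ALB farthest from its median r was 0.983, and within the scan days it was 0.981 and 0.990. The same held within each group, with r between 0.975 and 0.998 (n = 12). Of the 11 liver genes, ALB included, 9 had r between 0.839 and 0.985 with O4231, among them the apolipoprotein APOC3 (r = 0.983) and the thyroid hormone carrier TTR (r = 0.972). The other two were apolipoproteins with a lower r, APOA2 at 0.604 and APOA1 at 0.145. Without the arrays with high ALB, the line gap of O4231 was 0.12 ± 0.24 (SE), against 1.28 ± 0.60 with them. In bulk tissue, fewer cells of a type and less RNA per cell cannot be told apart.

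A_72_P079681 went with ALB more loosely, with a Pearson r of 0.377 (permutation p = 0.0074, BH-adjusted p = 0.012) and a Spearman rho of 0.405 (permutation p = 0.0036, BH-adjusted p = 0.0059). ALB was chosen after the values were seen, and the permutation p-values here and for O4231 do not allow for that choice. Without the 2 farthest arrays r was 0.304, and within the scan days it was 0.373 and 0.368. By group r was -0.153 in HF_RFIneg, -0.313 in HF_RFIpl, 0.647 in LF_RFIneg and 0.712 in LF_RFIpl, and the difference between these values was not tested. Among arrays with ALB at or below 2, MT1A was at 5.83 ± 0.44 in HF_RFIneg (SD, n = 6), 2.80 ± 2.16 in HF_RFIpl (n = 11), 3.40 ± 1.60 in LF_RFIneg (n = 6) and 3.0 ± 2.21 in LF_RFIpl (n = 7). The 6 HF_RFIneg pigs in this subset lay between 5.04 and 6.38, and the other groups still spanned low and high pigs. The part of liver transcripts in the levels of MT1A was not tested beyond these values. Of 12 lists of cell type markers, liver included, none held a gene called between lines, against 3.42% of all named genes. Kidney had 1 of 8 genes measured and adrenal 4 of 8. ALB was 1.44 higher in the low RFI line (limma, BH p = 0.47), and of the liver genes APOA1 alone was lower, at -0.16. The summed markers of mesothelium, the sheet of cells that lines the abdominal cavity, had a Pearson r of 0.471 with MT1A, with 3 of 6 genes measured (KRT8, KRT18 and KRT19) and group means from 1.94 to 2.25. MSLN, UPK3B and LRRN4 of this list had no kept probe. Over the 12 lists, r of the summed markers with MT1A ran from -0.340 for kidney to this highest value. It was -0.328 for adipocytes and 0.319 for liver. With MT1A and with O4231, r was 0.468 and 0.545 for KRT8, 0.349 and 0.298 for KRT18, and 0.247 and 0.034 for KRT19. The part of these genes in the result was not tested.

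**Figure D3:**
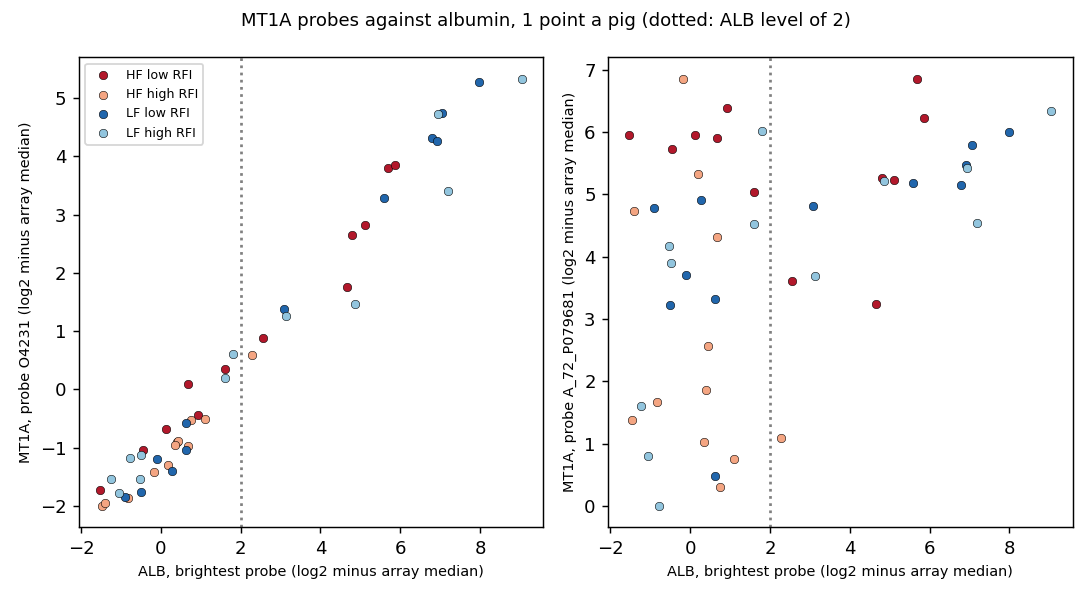
Levels of MT1A probe O4231 (left) and MT1A probe A_72_P079681 (right) against the level of albumin, all as log2 signal minus array median, with 1 point a pig coloured by group and a dotted line at the ALB level of 2. O4231 rises with ALB over the whole range (r = 0.985 with group means taken out), while A_72_P079681 takes values from 0.00 to 6.86 among pigs with low ALB.

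MT1G, another metallothionein of the same cluster of genes in mammals, moved with MT1A almost pig by pig. Its lowest, median and highest levels were 2.12, 4.03 and 5.0 in HF_RFIneg pigs, 0.11, 0.94 and 4.79 in HF_RFIpl pigs, 0.15, 3.24 and 4.71 in LF_RFIneg pigs, and -0.13, 2.78 and 4.72 in LF_RFIpl pigs. Pearson r with MT1A was 0.988 and Spearman rho 0.990 after group means were taken out, and r lay between 0.981 and 0.995 within the groups. Its values hence repeat those of MT1A and its line gap of 1.36 ± 0.37 (SE) is no separate evidence. Its diet difference was -0.07 ± 0.37 (SE; limma, BH p = 0.90) and its interaction 1.71 ± 0.74 (limma, unadjusted p = 0.025, BH p = 1.0).

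MT1M also went with MT1A, in a narrower range. Its lowest, median and highest levels were 6.42, 6.86 and 7.18 in HF_RFIneg pigs, 5.83, 6.16 and 7.30 in HF_RFIpl pigs, 6.01, 6.44 and 6.75 in LF_RFIneg pigs, and 5.68, 6.24 and 6.81 in LF_RFIpl pigs. HF_RFIneg pigs were high, and the other groups lay close to each other. Pearson r with MT1A was 0.677 and Spearman rho 0.646 after group means were taken out. The line difference was 0.38 ± 0.09 (SE; limma, BH p = 0.0048) with low RFI higher on 6 of 6 slides, and the second spot gave 0.39 ± 0.09 (limma, BH p = 0.0069). Since MT1M goes with MT1A, which was picked in this contrast, these p-values are not independent of that choice. Without the arrays with high ALB the difference was 0.31 ± 0.12 and was no longer called (limma, BH p = 0.38), with 30 pigs in place of 48. ALB itself showed no relation with MT1M that passed the test (r = -0.081, rho = -0.069, permutation p = 0.56 and 0.64).

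MT1M was also the metallothionein that was called higher in HF pigs, by 0.24 ± 0.09 (SE; limma, BH p = 0.031). Its second spot gave 0.22 ± 0.09 and was not called, because its unadjusted p of 0.017 missed the threshold of the methods (limma, BH p = 0.054). The call of the first spot was lost under 8 of 24 alternatives, with differences from 0.18 to 0.36. One of these was leaving out the arrays with high ALB, which gave 0.24 ± 0.12 over 30 pigs (limma, BH p = 0.14). Within low RFI pigs the HF minus LF difference was 0.43 ± 0.12 (limma, BH p = 0.018), and within high RFI pigs it was 0.04 ± 0.12 (limma, BH p = 0.86). The interaction of 0.39 ± 0.17 was not called (limma, unadjusted p = 0.027, BH p = 1.0), so a difference between lines in the diet response was not shown.

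**Figure D4:**
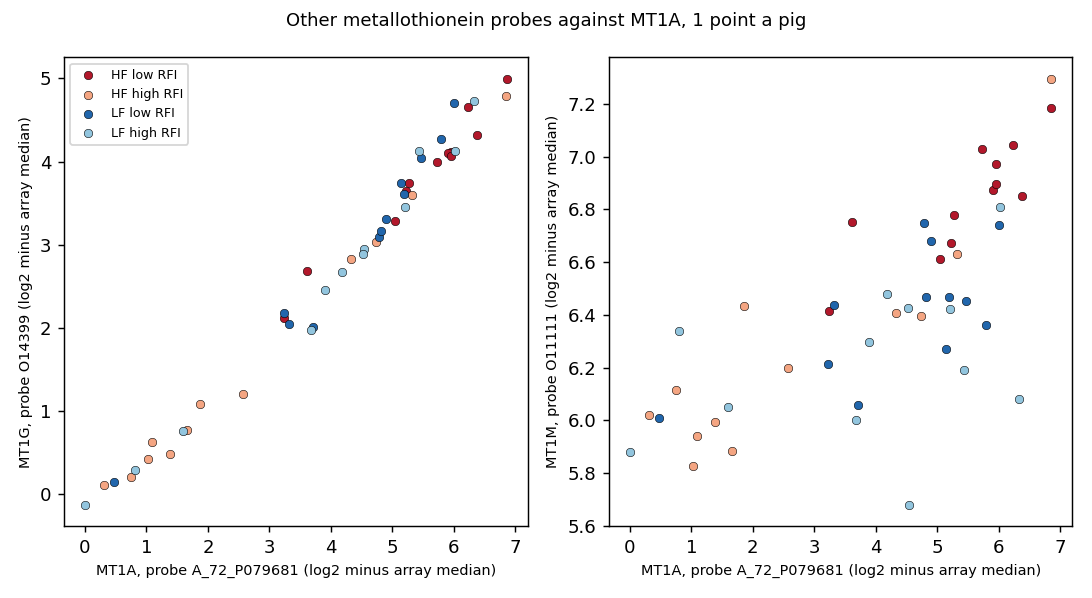
Levels of MT1G (left) and MT1M (right) against MT1A probe A_72_P079681 in the same 48 pigs, all as log2 signal minus array median, coloured by group. MT1G lies close to a line over the whole range of MT1A (r = 0.988 with group means taken out), and MT1M rises over a narrower range of 5.68 to 7.30.

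MT3, the metallothionein best known from brain, did not follow MT1A. Its levels lay between 5.36 and 6.04 over all pigs. HF pigs were lower by 0.15 ± 0.04 (SE; limma, BH p = 0.0042), and its second spot, with the same 60 bases, gave -0.14 ± 0.04 (limma, BH p = 0.00285). The call of the first spot was lost under 7 of 24 alternatives and that of the second under 6. Neither spot was called when arrays were scaled to the 75th percentile of the median or processed signal (-0.12 to -0.13), by quantiles with or without background correction (-0.06 to -0.07), or to spike-in transcripts (-0.02 at both). A related probe, TC592632, described as metallothionein-3 and sharing 24 bases with MT3, had a difference of -0.11 ± 0.04 that was not called because of its size (limma, BH p = 0.017). It was at -0.16 ± 0.05 and called without the arrays with high ALB (limma, BH p = 0.017). TC620726, described as pig metallothionein-3 but without such a shared run, differed between lines by 0.46 ± 0.10 (limma, BH p = 0.0026) and had a Pearson r of 0.476 with MT1A. Without the arrays with high ALB this difference was 0.39 ± 0.13 and was not called (limma, BH p = 0.24). Since TC620726 goes in part with MT1A, which was picked in this contrast, these p-values are not independent of that choice. The probe named MT-2B, from an expressed sequence tag, had levels from 7.63 to 8.13, a diet difference of 0.04 ± 0.04 (limma, BH p = 0.44) and a Pearson r of 0.065 with MT1A.

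MTF1, the metal sensor that drives metallothionein genes, was nearly flat. Its lowest, median and highest levels were -0.61, -0.51 and -0.28 in HF_RFIneg pigs, -0.75, -0.53 and -0.30 in HF_RFIpl pigs, -0.68, -0.46 and -0.06 in LF_RFIneg pigs, and -0.63, -0.45 and -0.27 in LF_RFIpl pigs. The 4 groups overlapped almost fully. The diet difference was -0.05 ± 0.04 (SE; limma, BH p = 0.40), with a 95% interval from -0.14 to 0.04. The interaction was 0.04 ± 0.09 (limma, BH p = 1.0), and the gap between lines, given as a description, was 0.03 ± 0.04. Its SD within groups was 0.148, under the median of kept probes, and its Pearson r with MT1A was -0.090 (Spearman rho -0.073). The array measures MTF1 mRNA, and the activity of the protein, which depends on zinc, was not measured.

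Other genes that handle metals were taken from fixed lists, with 1 probe a gene. Of 112 listed genes 82 had a kept probe, and 22 of these were called between diets, 6 higher and 16 lower in HF pigs (26.8%). Over all 9908 named genes 25.9% were called, 625 higher and 1939 lower, so the share in the lists was near the background. The median difference was -0.05 in the lists and -0.05 over all named genes. The split depends on how arrays are centred: with spike-in transcripts in place of the array median, the median of all named genes moved from -0.05 to 0.08, and 16 of the listed genes were called higher and 4 lower. It was 10 higher and 15 lower with the 75th percentile of the median signal, 8 and 14 with that of the processed signal, and 8 and 13 with quantiles, with or without background correction. Without the arrays with high ALB it was 4 higher and 18 lower. Directions below are thus relative to the middle probe of the array. Genes called only without the arrays with high ALB were SP1 (0.13 with them, 0.18 without), USF2 (-0.14 and -0.23) and SLC30A3 (-0.15 and -0.39). The same held for ATP7A (-0.09 and -0.19), SOD1 (-0.13 and -0.24) and SLC11A2 (0.11 and 0.28).

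Of MTF1 targets other than metallothioneins, 2 of 6 measured genes were called, both lower in HF pigs. These were SEPW1, a small selenoprotein, at -0.35 ± 0.07 (SE; limma, BH p = 9.3e-05) and GCLC, the catalytic subunit of the enzyme that starts glutathione synthesis, at -0.29 ± 0.07 (limma, BH p = 0.0022). GCLC was at -0.27 ± 0.10 without the arrays with high ALB and not called by the rule (limma, BH p = 0.047). SLC30A1, the zinc exporter of the plasma membrane and a classic MTF1 target, was not called, with a diet difference of 0.07 ± 0.07 (limma, BH p = 0.46) and a Pearson r of 0.231 with MT1A. Over the 6 measured targets r with MT1A ran from -0.139 for GCLC to 0.419 for HAMP. HAMP had a higher Pearson r with ALB, at 0.769.

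Zinc transporters had 5 called genes among 20 measured, 1 higher and 4 lower in HF pigs, and diet differences from -0.27 to 0.35. The SLC30 family members SLC30A9, at -0.27 ± 0.05 (SE; limma, BH p = 9.3e-05), and SLC30A5, at -0.21 ± 0.06 (limma, BH p = 0.0061), were lower. Of the SLC39 family SLC39A11 was at -0.23 ± 0.05 (limma, BH p = 5e-04), and SLC39A4, the intestinal zinc importer, at -0.19 ± 0.05 (limma, BH p = 0.0059). SLC39A5 was higher by 0.15 ± 0.05 (limma, BH p = 0.013), but the mean of its probes gave -0.08 and was not called. It was at 0.096 ± 0.06 without the arrays with high ALB, also not called (limma, BH p = 0.26). None of the 20 was called between lines, against 3.42% of all named genes, so little can be read from this count. Their differences between lines lay between -0.07 and 0.17. Pearson r with MT1A ranged from -0.306 to 0.376 among them.

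Of 12 measured copper genes 4 were called, all lower in HF pigs, which was also the more common direction over all named genes. ATOX1, the copper chaperone to the secretory pathway, was at -0.34 ± 0.06 (SE; limma, BH p = 0.00011). COX17, which brings copper to cytochrome oxidase, was at -0.22 ± 0.06 (limma, BH p = 0.0025), and the extracellular superoxide dismutase SOD3 at -0.42 ± 0.10 (limma, BH p = 0.0018). Ceruloplasmin (CP), the copper protein of plasma made by liver, was at -0.33 ± 0.11 (limma, BH p = 0.021), had a Pearson r of 0.804 with ALB, and was at -0.12 and not called by the rule without the arrays with high ALB (limma, BH p = 0.047).

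Iron genes had 3 called higher and 3 lower among 15. The metalloreductases STEAP1, at 0.82 ± 0.20 (SE; limma, BH p = 0.0013), and STEAP4, at 0.26 ± 0.09 (limma, BH p = 0.026), were higher in HF pigs, as was the phagosomal iron transporter SLC11A1, at 0.19 ± 0.07 (limma, BH p = 0.024). When the arrays with high ALB were left out, neither SLC11A1, at 0.05 ± 0.08 (limma, BH p = 0.70), nor STEAP4, at 0.31 ± 0.13 (limma, BH p = 0.075), was called. Of 6 measured macrophage markers 3 were higher in HF pigs, namely CD163 at 0.71, CSF1R at 0.48 and AIF1 at 0.36 (limma, BH p = 0.022, 0.011 and 0.020), and of 7 adipocyte markers 3 were lower, LEP at -0.94, CIDEC at -0.24 and LIPE at -0.18. The other called markers were AQP2, the only measured kidney gene, at -0.63 (limma, BH p = 0.00027), CD3G of T and NK cells at 0.34 (limma, BH p = 0.0079) and CLDN5 of endothelium at 0.30 (limma, BH p = 0.011). Over all 9908 named genes 25.9% were called between diets, 625 higher and 1939 lower in HF pigs. The part of these cell types in the diet differences of the listed genes was not tested. The iron-responsive aconitase ACO1 was lower at -0.36 ± 0.09 (limma, BH p = 0.0028), the transferrin receptor TFR2 at -0.24 ± 0.06 (limma, BH p = 0.0014) and the ferritin light chain FTL at -0.19 ± 0.05 (limma, BH p = 0.0011). TFR2 had a Pearson r of 0.585 with ALB, and was at -0.20 and called without the arrays with high ALB (limma, BH p = 0.0082).

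None of the 8 measured glucocorticoid-response genes was called between diets, with differences from -0.15 to 0.14. Their Pearson r with MT1A ran from -0.150 for SGK1 to 0.453 for FKBP5. Of 14 measured acute-phase and inflammatory genes, SOCS3, a feedback inhibitor of cytokine signalling, was higher in HF pigs by 0.40 ± 0.14 (SE; limma, BH p = 0.024). LCN2, which binds iron carriers of bacteria, was at -1.70 ± 0.24 (limma, BH p = 1.5e-06), and the acute-phase protein CRP at -0.26 ± 0.07 (limma, BH p = 0.0069), with a Pearson r of 0.608 between CRP and ALB. CRP was at -0.27 and called without the arrays with high ALB (limma, BH p = 0.0061).

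**Figure D5:**
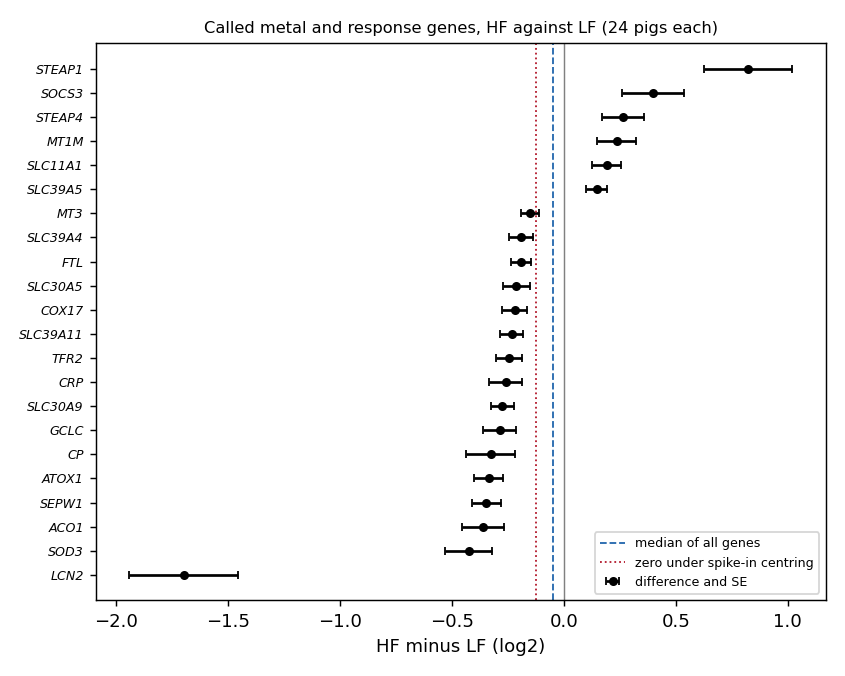
HF minus LF difference (log2) with its SE for the 22 listed genes called between diets, 24 pigs in each diet; the dashed line is the median of all named genes and the dotted line the zero point if arrays are centred on spike-in transcripts. STEAP1 is highest at 0.82 and LCN2 lowest at -1.70.

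Between lines 3 of 80 listed genes other than the members were called (3.75%), against 3.42% of all named genes. They were MT1G and MT1M, which go with MT1A and so draw on the values that chose it, so that nothing is read from this count, and STEAP1, which was lower in the low RFI line, at -0.79 ± 0.20 (SE; limma, BH p = 0.014). STEAP1 had group means of 1.19 in HF_RFIneg, 2.02 in HF_RFIpl, 0.42 in LF_RFIneg and 1.15 in LF_RFIpl, and a Pearson r of -0.140 with MT1A. Without the arrays with high ALB none of the 80 was called by limma or by the analysis of variance, with 12 and 11 at an unadjusted p under 0.05, and STEAP1 was at -0.68 (limma, BH p = 0.34).

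Among 9903 named genes outside the metallothioneins, those most like MT1A over the 48 pigs, after group means were taken out, had far lower correlations than MT1G. They were FOXO1, a transcription factor under insulin control (r = 0.576, rho = 0.502), RPRD1B (r = 0.546, rho = 0.541), HELZ (r = 0.542, rho = 0.602), GARNL3 (r = 0.538, rho = 0.534), ZCCHC6 (r = 0.525, rho = 0.663), the complement factor CFB (r = 0.520, rho = 0.528), CCDC30 (r = 0.515, rho = 0.525), UGCG, which makes glucosylceramide (r = 0.493, rho = 0.528), KIAA1033 (r = 0.480, rho = 0.368) and SLC4A11 (r = 0.476, rho = 0.455). CFB and GARNL3 also had r of 0.883 and 0.738 with ALB, whereas FOXO1 had 0.042. The lowest were C12ORF52 (r = -0.638, rho = -0.660), TMLHE, an enzyme of carnitine synthesis (r = -0.627, rho = -0.639), and PLA2G6, a phospholipase (r = -0.598, rho = -0.619). These values describe pigs that share slides and array scaling, and were picked as the extremes of many genes.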

How the data were processed

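Cy3-labelled RNA of 48 pigs was read on one-colour arrays of pig probes. The deposited intensity values were read by the authors' scanner software, without normalization between arrays; 0/1 flags mark saturation and signal above background. For the deposited log2 values the authors filtered spots on quality and subtracted each array's median; submitters' notes name R 2.10.0. The names of 2 of 38142 entries fitted their values, so each was matched to its spot by value (tolerance 1e-06). The genome build is not given in the sources used here.

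Levels are log2 median signals minus the median of 60306 probes. Diet, line and interaction were fitted over the 38142 kept probes with limma 3.58.1 in R 4.3.3 (lmFit, eBayes). The methods' two-way ANOVA, other scalings, filters and blocks were alternatives. Correlations with ALB used 100000 two-sided permutations within groups, in Python 3.11.15. The fit was tested on simulated data. The members and lists were chosen with earlier results of these data known. Named genes were all metallothionein and member probes, listed genes called for diet or line, and the 10 genes most and 3 least correlated with MT1A; a gene's probe was that with the highest mean.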

Additional observations from a re-analysis of the deposited data

How the results depend on the processing

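The gap between lines of MT1A stayed between 1.34 (with ALB as a covariate) and 2.27 under 24 alternatives. It stayed between 1.5 and 1.86 when single pigs were left out. The interaction of MT1A was not called in any of 23 alternatives, with values from 1.52 (without slide 4) to 3.15 (without slide 5) and from 1.88 to 2.62 when single pigs were left out. The diet difference of MT1A, -0.07, changed sign with spike-in centring (0.0521), without slide 4 (0.13), without slide 6 (0.25), without the arrays with high ALB (1.11) and with ALB as a covariate (0.26), and ran from -0.26 to 0.0399 when single pigs were left out. It was called under none of these. In the same 5 settings A_72_P744498 gave 0.0378, 0.10, 0.24, 1.07 and 0.25, and MT1G 0.0538, 0.0664, 0.21, 0.83 and 0.24. O4231 gave 0.21 without the arrays with high ALB and 0.0246 with the covariate. Spike-in centring also turned the diet difference of MTF1 (0.0752) and of TC592632 (0.0136), which were not called, and MTF1 ran from -0.0607 to -0.0328 when single pigs were left out, with an interaction from 0.0156 to 0.0714. Reversals of values near 0 were the interaction of the second MT3 spot with processed signals (-0.00666) and without the arrays with high ALB (-0.0450), the interaction of MT-2B with processed signals (-0.00841), without slide 3 (-0.00330) and without the arrays with high ALB (-0.0390), and the diet difference of MT-2B without these arrays (-0.0103). The called diet difference of SLC39A5, 0.15, turned to -0.0771, not called, as the mean of its probes. The cause was not tested.

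The count of 22 listed genes called between diets stayed between 17 and 25. The count of 3 between lines was 6 with the replicate block, 5 with array weights, 1 without slide 1 and 0 without the arrays with high ALB. Of 25 called results of named genes other than the members, 5 kept their call under every alternative (SEPW1, SLC30A9, ATOX1, STEAP1 and LCN2 for diet), and spike-in centring ended 13 and leaving out the arrays with high ALB ended 8 (GCLC, SLC39A5, CP, SLC11A1, STEAP4 and MT1M for diet, MT1M and STEAP1 for line). With the replicate number as a block, the diet difference of MT1A was -0.07 (limma, BH p = 0.92), its interaction 2.24 (BH p = 1.0) and the calls of the listed genes between diets 25. The numbers run along the slides, and same-numbered pigs had a mean correlation of deviations of 0.107, with 37 of 72 pairs over 0.1, so they were not taken as pairs. MT2A had no probe, and its alternatives were not run; O4231 and SOD3 were not well above background on every array and have no value under that filter. The alternatives with ALB were added after seeing the data.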
